A study of Mus musculus with 6 samples.

Results

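The genes described here encode enzymes that make, modify or use the coenzyme NAD. They were Nmrk1, Nmrk2, Nampt, Nmnat1, Nmnat3, Nnmt, Nadk2, Nnt, Sirt1 and Sirt3, 10 of the 48795 genes in the deposited count table, found there by their Ensembl identifiers. The set was chosen by pathway with earlier results of the same comparison known, among them the difference in Nmrk2 counts between MERKO and control, so the differences between genotypes are descriptions for these genes, no p-value of theirs is given, and nothing is read from the number of them past a threshold. The tissue was quadriceps muscle of male C57BL/6 mice aged 20 weeks, sequenced as whole-tissue RNA. MERKO mice carry a knockout of the estrogen receptor ERα (gene Esr1) restricted to muscle (3 libraries), and wild-type mice served as control (3 libraries). The promoter that drives the muscle deletion, the C57BL/6 substrain, and whether each library came from its own animal are not stated in the labels, so p-values measure only the spread between these libraries, which may be technical. The series title concerns mitochondria and metabolism, to which NAD enzymes belong.

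NAD carries electrons between metabolic enzymes and is also consumed by signalling enzymes, so cells rebuild it continuously. In the salvage route, NAMPT turns nicotinamide into nicotinamide mononucleotide (NMN), while the kinases NMRK1 and NMRK2 make NMN from nicotinamide riboside, and NMNAT enzymes then convert NMN into NAD. NMRK2 is known as the form enriched in striated muscle, whereas NMRK1 is found in most tissues. NNMT methylates nicotinamide and so takes it out of salvage, and NADK2 makes NADP in mitochondria. NNT, an enzyme of the inner mitochondrial membrane, passes electrons between NADH and NADPH. The deacetylases SIRT1 and SIRT3 use NAD in the nucleus and in mitochondria.

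The 2 riboside kinases catalyse the same step, and Nmrk2 had the largest difference between genotypes of the 10 genes while that of Nmrk1 was small, so the sequences before their transcript starts are shown together. Each is the 250 bases upstream of the RefSeq start (GRCm38.p6), read 5′ to 3′ on the gene's own strand. Nmrk2 has chr10:81202038-81202287 on the minus strand and Nmrk1 has chr19:18631766-18632015 on the plus strand. Capitals mark matches on either strand to the TATA box TATAAA, the E-box CANNTG, the estrogen response element half-site AGGTCA or the cyclic AMP element TGACGTCA.
Nmrk2: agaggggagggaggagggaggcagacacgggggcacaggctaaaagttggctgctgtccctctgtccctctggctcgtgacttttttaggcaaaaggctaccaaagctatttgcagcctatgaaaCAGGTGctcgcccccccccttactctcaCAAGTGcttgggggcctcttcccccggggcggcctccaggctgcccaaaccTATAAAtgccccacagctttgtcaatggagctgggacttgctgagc
Nmrk1: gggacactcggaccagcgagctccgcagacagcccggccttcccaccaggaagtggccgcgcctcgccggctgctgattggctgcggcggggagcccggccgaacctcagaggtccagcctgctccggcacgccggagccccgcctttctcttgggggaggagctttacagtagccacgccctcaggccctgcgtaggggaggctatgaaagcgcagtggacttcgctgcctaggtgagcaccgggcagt

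The Nmrk2 stretch held 1 TATA box, whose first base lies 46 bases before the start, and 2 E-boxes, CAGGTG beginning at base -125 and CAAGTG at base -97. The Nmrk1 stretch held none of these motifs. Among 32851 RefSeq promoters cut to the same length, 12.4% had TATAAA and 66.2% had CANNTG, so an E-box is common. Promoter sequences were found for 7 of the 10 genes, and not for Nnmt, Nadk2 or Nnt. Sirt1 held 2 copies of CACGTG, an E-box form bound by circadian clock factors, beginning at -115 and -43, and 6.02% of promoters held that motif. Nampt held 1 estrogen response element half-site beginning at -151, a motif in 14.0% of promoters. TGACGTCA was in 1.55% of promoters and matched in none of the 7 genes. These are matches of letters and do not show that a factor binds.

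**Figure D1:**
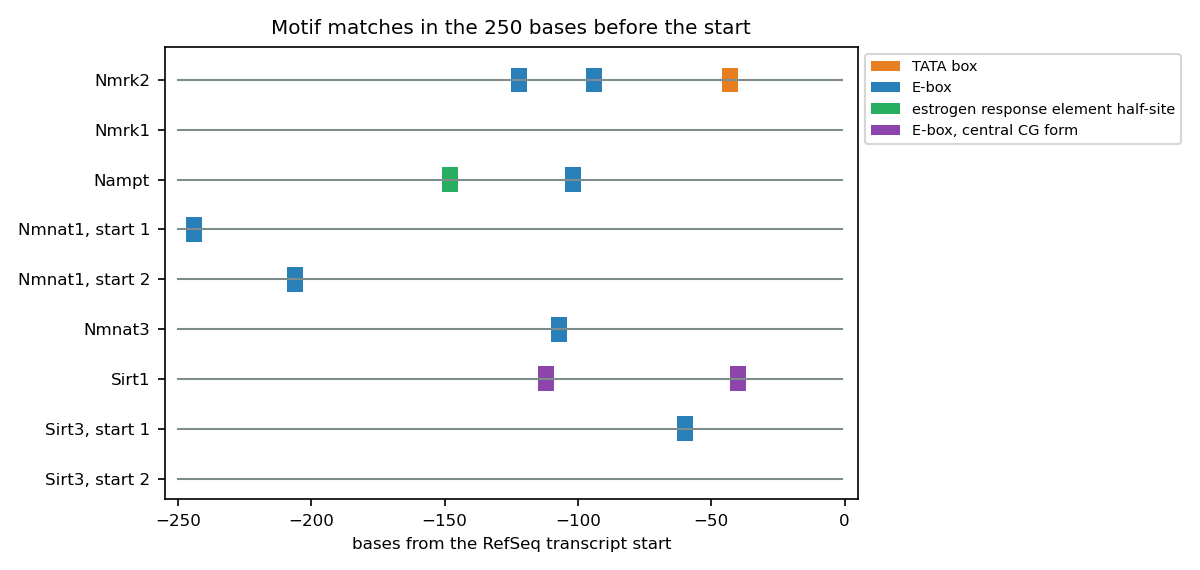
Motif matches in the 250 bases before each RefSeq transcript start, with the distance from the start in bases on the horizontal axis and a row for each start. Nmrk2 is the row with a TATA box, and the Nmrk1 row is empty.

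Levels are given as CPM, that is, reads of a gene per TMM-scaled library of fixed size, and values of single libraries are listed within a group in the order 1, 2 and 3. Total counts per library ran from 15755947 to 26596608 in MERKO and from 14935532 to 44282448 in control. The gene model for ribosomal RNA took 6.19% to 32.4% of counts in MERKO and 0.0433% to 27.7% in control, and genes of mitochondrial DNA took 4.90% to 11.02% in MERKO and 6.68% to 10.6% in control. Esr1, the targeted gene, measured 6.75, 9.43 and 7.46 CPM across the MERKO libraries, against 25.1, 34.1 and 31.1 CPM across the control libraries, with every MERKO library below every control library (log2 fold change -1.95, SE 0.16). All 11 marker genes of skeletal muscle fibres, some of them shared by all fibre types and some specific to fast fibres, had counts in every library, with summed levels of 117268 to 171179 CPM in MERKO and 145577 to 165532 CPM in control. The 8 slow-fibre genes were high in MERKO 1 and in control 1, at 570 CPM in sum in each, against 37.3 to 51.4 CPM in the other libraries. Higher levels in MERKO were seen in 9 of 10 tendon genes, with sums of 90.3 to 440 CPM in MERKO and 33.7 to 91.4 CPM in control. All 5 nerve genes were higher, at 18.6 to 29.8 CPM in MERKO and 11.2 to 19.3 CPM in control in sum. Of 13 adipocyte genes, 11 were lower in MERKO, at 897 to 1514 CPM in MERKO and 1884 to 2414 CPM in control in sum. Car3 and Plin4 made up most of each sum, and Car3 most of the difference between the groups. Car3 measured 284, 285 and 799 CPM across the MERKO libraries, against 952, 1237 and 1263 CPM across the control libraries. None of these marker genes was at 0 in any library, and none passed the test. Endothelial (6), macrophage (5), fibroblast (4) and blood (3) genes had sums that overlapped between the groups, as did the tendon and nerve genes. The part of these marker differences in the values below was not tested.

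Nmrk2 differed between the genotypes by more than any other of the 10 genes. It measured 115, 103 and 94.6 CPM across the MERKO libraries, from 3796, 1218 and 1966 reads, against 69.1, 35.4 and 26.6 CPM across the control libraries, from 1645, 449 and 1445 reads. Every MERKO library lay above every control library, and the control libraries were spread more widely than the MERKO libraries. The group means were 104 ± 10.5 CPM for MERKO, against 43.7 ± 22.4 CPM for control (SD, n = 3 per group). The log2 fold change was 1.25 (SE 0.31, 95% interval 0.54 to 1.97), which is 2.39-fold. The intervals given for the 10 genes are adjusted neither for their choice with this comparison known nor for the number of genes tested. They are therefore descriptions and not tests. Of all 13628 genes tested, 1.17% had a change at least as large in either direction. Nmrk2 lies at GRCm38 chr10:81198170-81202051 on the minus strand.

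The size of the Nmrk2 difference depended on the control libraries. Without control 1, the highest control library for Nmrk2 and the control library with most slow-fibre signal, the log2 fold change was 1.76. Without MERKO 1 and control 1 together, the slow-fibre libraries, it was 1.69, and since control 1 stood further above its group than MERKO 1 did, leaving out this pair raises the value. Type IIa myosin (Myh2), of fast oxidative fibres, measured 3050, 164 and 722 CPM across the MERKO libraries, against 1514, 56.7 and 38.3 CPM across the control libraries. Library 1 was the highest of its group for both Myh2 and Nmrk2, and the Myh2 groups overlapped. The part of fibre make-up in the Nmrk2 values was not tested. Control 3, the deepest library and that with the smallest share of ribosomal RNA, had the lowest Nmrk2 level, and without it the log2 fold change was 0.99. The exons of Nmrk2 share 270 bases with the antisense gene Atcayos, and the strand setting of the counting is not given. Atcayos measured 54.9, 69.8 and 57.6 CPM across the MERKO libraries, against 64.8, 77.6 and 67.1 CPM across the control libraries, so it was not higher in MERKO.

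Nmrk1, the widely expressed riboside kinase, was scarce and differed little in mean between the groups. It measured 2.68, 3.37 and 3.42 CPM across the MERKO libraries, against 3.07, 3.39 and 3.97 CPM across the control libraries, and the groups overlapped (log2 fold change -0.16, SE 0.19). Levels per kilobase of exon were used to compare different genes. They divide by the union of all annotated exons of a gene, so they depend on that length (1854 bases for Nmrk2 and 3689 for Nmrk1). Per kilobase, Nmrk2 exceeded Nmrk1 by 85.8, 60.6 and 55.1 times in MERKO 1 to 3. In control 1 to 3 it did so by 44.8, 20.8 and 13.3 times. This ratio is taken within a library and does not depend on scaling between libraries. Nmrk2 made up 98.2% to 98.8% of the pair per kilobase in MERKO and 93.0% to 97.8% in control.

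Nampt, the enzyme of the main salvage step, varied little between libraries. It measured 157, 146 and 158 CPM across the MERKO libraries, against 173, 149.7 and 144 CPM across the control libraries. The groups overlapped, and the 95% interval of the log2 fold change was -0.25 to 0.23. The level of Nampt per kilobase was 0.50, 0.52 and 0.61 times that of Nmrk2 in MERKO 1 to 3 and 0.92, 1.55 and 1.98 times in control 1 to 3. Per kilobase, Nmrk2 thus had the higher level in all MERKO libraries and in control 1, and Nampt in control 2 and control 3. In CPM, Nampt was above Nmrk2 in every library. The order of the 2 genes therefore depends on the exon lengths used, 5054 bases for Nampt and 1854 for Nmrk2.

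The 2 genes for the last step of NAD synthesis were also close between genotypes. Nmnat1, the nuclear enzyme, measured 26.4, 20.96 and 20.4 CPM across the MERKO libraries, against 26.6, 20.4 and 22.96 CPM across the control libraries (log2 fold change -0.04, SE 0.14). Nmnat3, the mitochondrial form, measured 16.1, 15.2 and 13.4 CPM across the MERKO libraries, against 16.9, 13.8 and 13.5 CPM across the control libraries (log2 fold change 0.02, SE 0.13). In each gene the groups overlapped, and MERKO 1 and control 1 were the highest libraries of their groups. The sign for Nampt, Nmnat1 and Nmnat3 changed when some single libraries were left out, with values between -0.18 and 0.13. Without a composition factor, all genes shifted by a median of -0.12 in log2 and Nmnat3 was at -0.09.

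**Figure D2:**
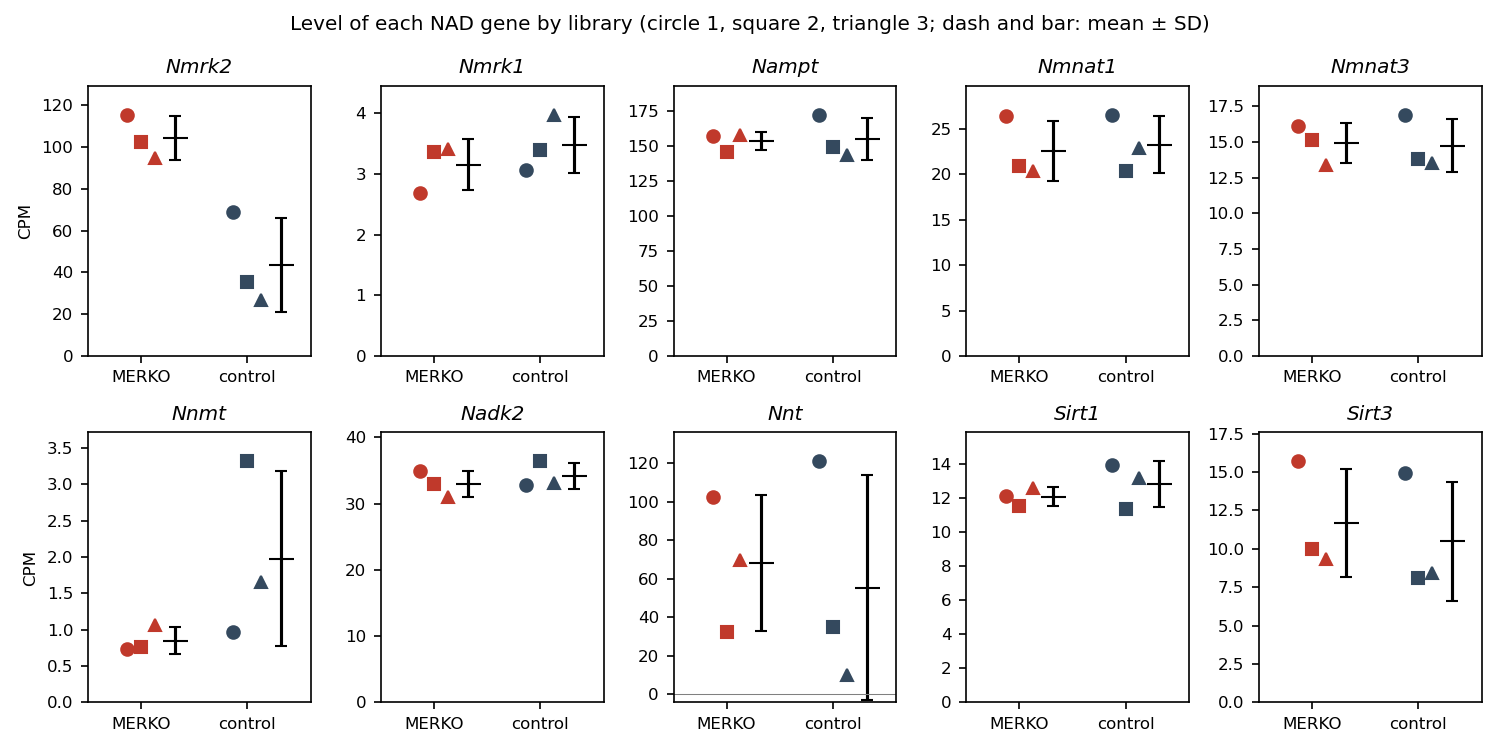
CPM of the 10 genes in each library, with MERKO on the left and control on the right of every panel and axes that include 0. Symbols mark libraries 1, 2 and 3 and the dash with its bar is the mean ± SD of 3 libraries. The Nmrk2 libraries of MERKO sit between 94.6 and 115 CPM, above the highest control library at 69.1 CPM, and the groups overlap in the other panels.

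Nnmt, which methylates nicotinamide, was the member with the largest difference in the other direction, at a low level. It measured 0.73, 0.76 and 1.06 CPM across the MERKO libraries, from 24, 9 and 22 reads, against 0.97, 3.31 and 1.65 CPM across the control libraries, from 23, 42 and 90 reads. Control 2 was the highest library, and control 1 lay within the MERKO range, so the groups overlapped. The log2 fold change was -1.15 (SE 0.46, 95% interval -2.21 to -0.09), and without control 2 it was -0.65. Adiponectin (Adipoq), a hormone made by fat cells, measured 2.16, 4.88 and 6.88 CPM across the MERKO libraries, against 4.83, 36.7 and 16.9 CPM across the control libraries, with control 2 the highest and control 3 next, as for Nnmt. Some other adipocyte genes had other orders, with Lep highest in control 3 (14.0 CPM, 11.5 CPM in control 2) and Plin4 in control 1 (582 CPM). Of the 13 genes, Pnpla2 and Dgat2 were the 2 not lower in MERKO (log2 fold changes 0.05 and 0.10). The summed level of the adipocyte list was lower in MERKO, largely through Car3, and the part of that list in the Nnmt value was not tested. In whole tissue, fewer cells of a type and less RNA per cell cannot be told apart.

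Genes of the mitochondrial NADP and NADPH steps differed in how steady they were. Nadk2, the mitochondrial NAD kinase, measured 34.9, 33.0 and 31.0 CPM across the MERKO libraries, against 32.9, 36.4 and 33.1 CPM across the control libraries (log2 fold change -0.05, SE 0.09). Nnt, the transhydrogenase, measured 102, 32.2 and 69.9 CPM across the MERKO libraries, against 121, 34.7 and 10.02 CPM across the control libraries. Its highest library exceeded its lowest by 12.1 times, a ratio reached by 1.17% of all genes tested, and both ends of that range were control libraries. The log2 fold change was 0.31 (SE 0.76, 95% interval -1.45 to 2.07), which covers a large difference in either direction. It was -0.10 without MERKO 1, -0.20 without control 3, 0.07 without control 2, 0.64 without MERKO 2 and 1.66 without control 1, so the libraries chosen decided its sign and size.

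Nnt was high in the libraries that were high in Myh1 and Myh2, myosins of fast fibres. Type IIx myosin (Myh1) measured 10132, 2307 and 3526 CPM across the MERKO libraries, against 6083, 2021 and 701 CPM across the control libraries, and Myh2 at the values given above. In all 3 genes, library 1 was the highest of its group and control 3 the lowest of all. For slow myosin (Myh7), library 1 was also the highest of its group, but control 3 was not the lowest. Myh7 measured 160, 1.77 and 2.12 CPM across the MERKO libraries, against 185, 6.00 and 8.07 CPM across the control libraries. The part of fibre make-up in the Nnt values was not tested. The substrain C57BL/6J is known to carry a deletion of exons within Nnt, and a count summed over all exons does not show whether that deletion was present.

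The sirtuin genes showed small differences. Sirt1 measured 12.1, 11.5 and 12.6 CPM across the MERKO libraries, against 13.9, 11.4 and 13.2 CPM across the control libraries (log2 fold change -0.09, SE 0.11). Sirt3 measured 15.7, 10.02 and 9.34 CPM across the MERKO libraries, against 14.96, 8.13 and 8.40 CPM across the control libraries (log2 fold change 0.16, SE 0.28). The groups overlapped in each, and Sirt3, like Nnt, was highest in MERKO 1 and control 1. Its log2 fold change was -0.12 without MERKO 1, 0.51 without control 1, 0.26 without MERKO 2, 0.31 without MERKO 3, 0.03 without control 2 and 0.01 without control 3. Exons of Sirt3 share 418 bases with Ric8a and 342 bases with Psmd13 on the opposite strand, so reads of these genes may not be told apart.

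Per kilobase of exon, the control means ran from Nampt at 30.7 ± 3.01 and Nmrk2 at 23.6 ± 12.1 through Nnt at 7.86 ± 8.30, Nmnat1 at 7.67 ± 1.02, Nadk2 at 6.67 ± 0.38, Nmnat3 at 2.94 ± 0.37, Sirt1 at 2.41 ± 0.25, Sirt3 at 1.76 ± 0.65 and Nnmt at 1.26 ± 0.77 to Nmrk1 at 0.94 ± 0.12 CPM per kb (SD, n = 3). Among neighbours in this order, the control ranges were apart only between Nadk2 and Nmnat3 and between Nmnat3 and Sirt1. In MERKO, Nmrk2 stood first at 56.2 ± 5.67 CPM per kb, above Nampt at 30.5 ± 1.33, and those ranges did not overlap.

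**Figure D3:**
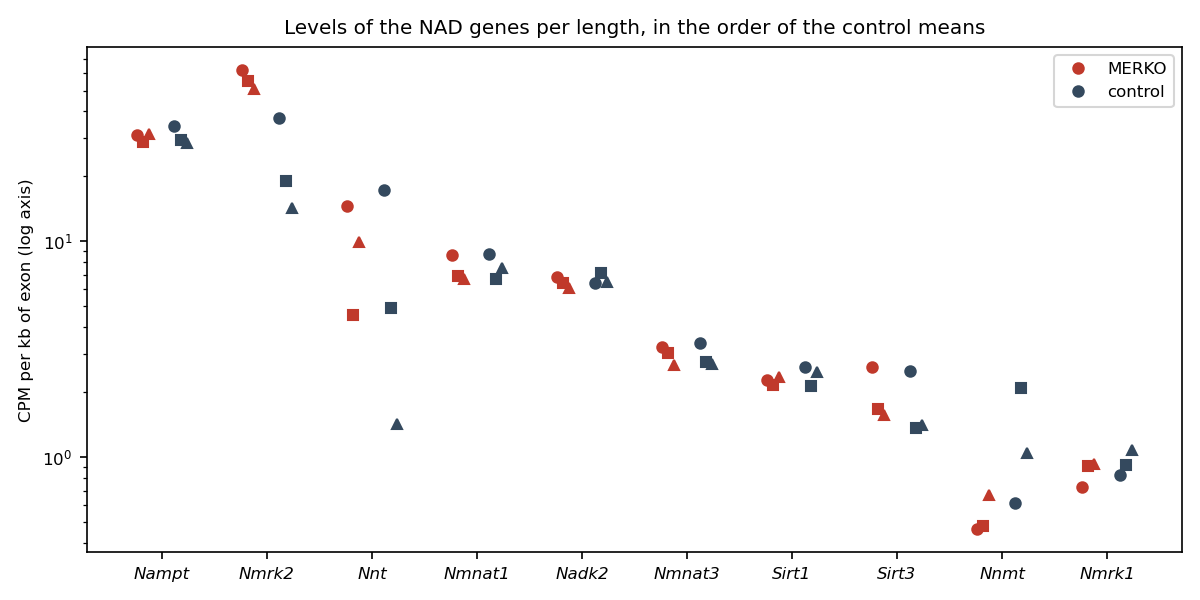
CPM per kb of exon on a log axis for the 10 genes, ordered by control mean, with MERKO left of control and a symbol for each library. Nmrk2 lies at 51.0 to 62.3 CPM per kb in MERKO, above Nampt at 28.9 to 31.3, while the Nnt libraries of control spread from 1.42 to 17.2.

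Over the 10 genes, 4 were higher in MERKO and 6 were lower. The median log2 fold change was -0.03, beside a median of 0.01 and 52.1% of genes higher over all 13628 genes tested. All 10 passed the filter on low counts, and 0 passed the edgeR threshold, an adjusted p under 0.05, where 0.00734% of all genes did. DESeq2 called 0 of the 10 and 0.166% of all genes, and limma-voom called 0 of the 10 and 0.00734% of all genes. The groups did not overlap in 1 of the 10, Nmrk2, against 13.3% of all genes. In 7 of the 10 the highest library was less than 2 times the lowest, and in 7 the log2 fold change was smaller than 0.2 in size. The exceptions in both counts were Nmrk2, Nnmt and Nnt.

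**Figure D4:**
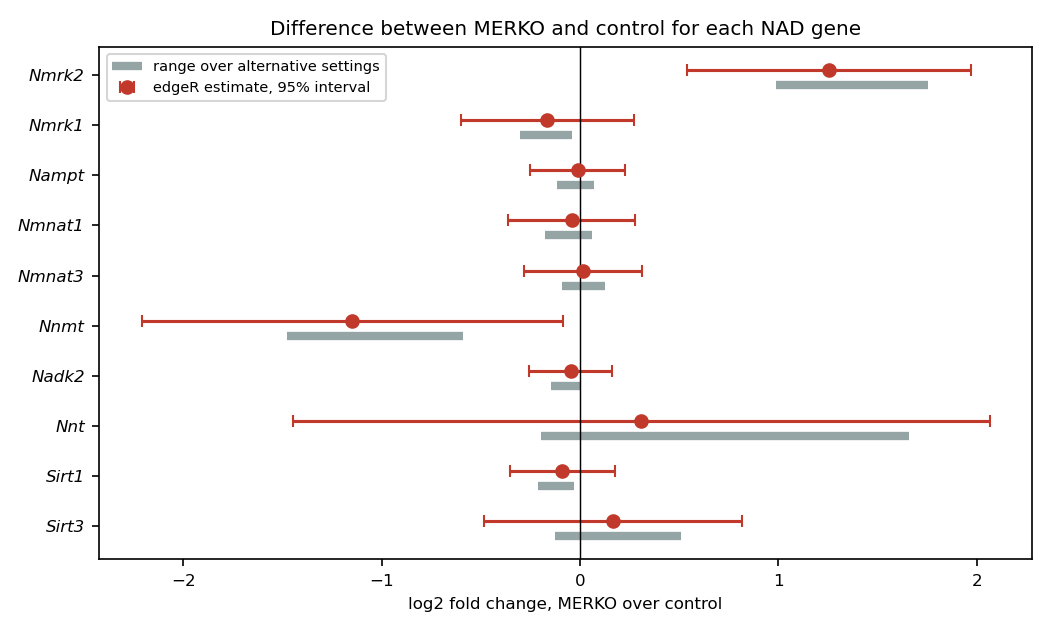
Log2 fold change of MERKO over control for each gene, with the edgeR estimate and its 95% interval in red and the range over 17 alternative settings in grey. The Nmrk2 values stay above 0, between 0.99 and 1.76, those of Nnmt stay below 0, between -1.48 and -0.59, and those of Nnt run from -0.20 to 1.66.

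The other genes of NAD metabolism were taken from 6 lists by role. Of 74 genes listed, 73 were in the table and 61 had enough counts to be tested, of which 34 were higher in MERKO and 27 were lower. Their median log2 fold change was 0.03. In the edgeR test 0 passed in either direction, 3 had an unadjusted p under 0.05, where 7.04% of all genes did, and 10 had groups that did not overlap, where 13.3% of all genes did. Both counts are near those shares. DESeq2 and limma-voom also called 0. Among the genes of other routes of synthesis, 8 of 17 found were tested. Those of the route from tryptophan, up to the step of Qprt, were at most at 0.76 CPM in any library. Nadsyn1, at the end of that route, was at 1.52 to 2.83 CPM in MERKO and 1.87 to 2.98 CPM in control. Tdo2, the first enzyme of that route in liver, had 0 reads in all 3 MERKO libraries and up to 0.71 CPM in control. Acmsd, which diverts an intermediate of that route, had 0 reads in all 6 libraries. A count of 0 allows up to 0.0551 to 0.253 CPM, taking 3 reads per library as the limit, for counting error alone. Slc25a51, the mitochondrial NAD carrier, measured 53.3, 53.2 and 52.1 CPM across the MERKO libraries, against 59.99, 53.7 and 62.9 CPM across the control libraries (log2 fold change -0.16, adjusted p = 0.716, edgeR). Nt5e, an ectoenzyme that yields nicotinamide riboside from NMN, averaged 2.90 ± 0.70 CPM in MERKO muscle, against 2.35 ± 0.35 CPM in control muscle (adjusted p = 0.803, edgeR).

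Among the 6 genes of NADP and NAD turnover, Nudt12, a hydrolase of NADH, measured 7.48, 7.91 and 7.89 CPM across the MERKO libraries, against 9.79, 10.2 and 9.08 CPM across the control libraries (log2 fold change -0.32, adjusted p = 0.680, edgeR). Naxd, which repairs hydrated NADH, averaged 17.6 ± 1.14 CPM in MERKO muscle, against 20.0 ± 1.78 CPM in control muscle (adjusted p = 0.715, edgeR). Of the 22 NAD consumers other than sirtuins, 19 were tested, 12 higher and 7 lower, while the summed level of the list was 839 to 843 CPM in MERKO and 858 to 895 CPM in control. Art3, of the ADP-ribosyltransferase family, measured 112, 107 and 119.7 CPM across the MERKO libraries, against 145, 139.8 and 137 CPM across the control libraries (log2 fold change -0.31, SE 0.09, adjusted p = 0.654, edgeR). Its groups did not overlap, and Art3 made up much of the difference in the summed level of that list. Parp8, of the PARP family, averaged 16.8 ± 0.37 CPM in MERKO muscle, against 15.03 ± 0.26 CPM in control muscle (adjusted p = 0.714, edgeR).

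All 5 other sirtuin genes were tested, and 4 were higher and 1 lower, with Sirt5 averaging 6.88 ± 2.00 CPM in MERKO muscle, against 6.12 ± 1.36 CPM in control muscle, and Sirt4 averaging 4.52 ± 1.33 CPM in MERKO muscle, against 3.97 ± 0.68 CPM in control muscle. These are mitochondrial sirtuins, like Sirt3, with adjusted p-values of 0.869 and 0.871 in the edgeR test. Of 12 genes of NADPH supply other than Nnt, 4 were higher and 8 lower. Aldh1l2, a mitochondrial folate enzyme that yields NADPH, had the lowest p of the 61 genes, with 5.26, 6.15 and 5.15 CPM across the MERKO libraries, against 2.48, 3.08 and 3.05 CPM across the control libraries (log2 fold change 0.94, SE 0.17, adjusted p = 0.631, edgeR). All MERKO libraries lay above all control libraries. Mthfd2, another mitochondrial folate enzyme, averaged 2.72 ± 0.64 CPM in MERKO muscle, against 1.75 ± 0.53 CPM in control muscle with overlapping groups (adjusted p = 0.713, edgeR).

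The genes whose pattern over the 6 libraries was most like that of Nmrk2 were Sbk2, Krt222, B3galt1, Cnnm4, Evc2 and Ankrd1, among 10277 genes compared. Likeness was the root mean square difference in log2 CPM after centring each gene on its mean, and it was 0.23 for Sbk2, a kinase gene, and 0.38 for Ankrd1, a stretch-responsive sarcomere gene, where the median gene was at 0.82. Sbk2 measured 30.3, 24.7 and 26.7 CPM across the MERKO libraries, against 16.1, 11.7 and 9.47 CPM across the control libraries. It shared with Nmrk2 that control 1 was the highest and control 3 the lowest control library. The genes most like Nnmt were Pde3b, Slc25a1, Tkt and Heph, at 0.17 to 0.20 against a median of 0.73. Pde3b, a phosphodiesterase of fat cells among others, measured 2.92, 3.62 and 3.85 CPM across the MERKO libraries, against 4.495, 14.1 and 5.59 CPM across the control libraries, again with control 2 highest. The genes were picked for likeness over these same libraries, so the shared library orders and the distances below the median gene follow from that choice. These likenesses rest on 6 libraries that share depth and composition, and are given without a test.

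**Figure D5:**
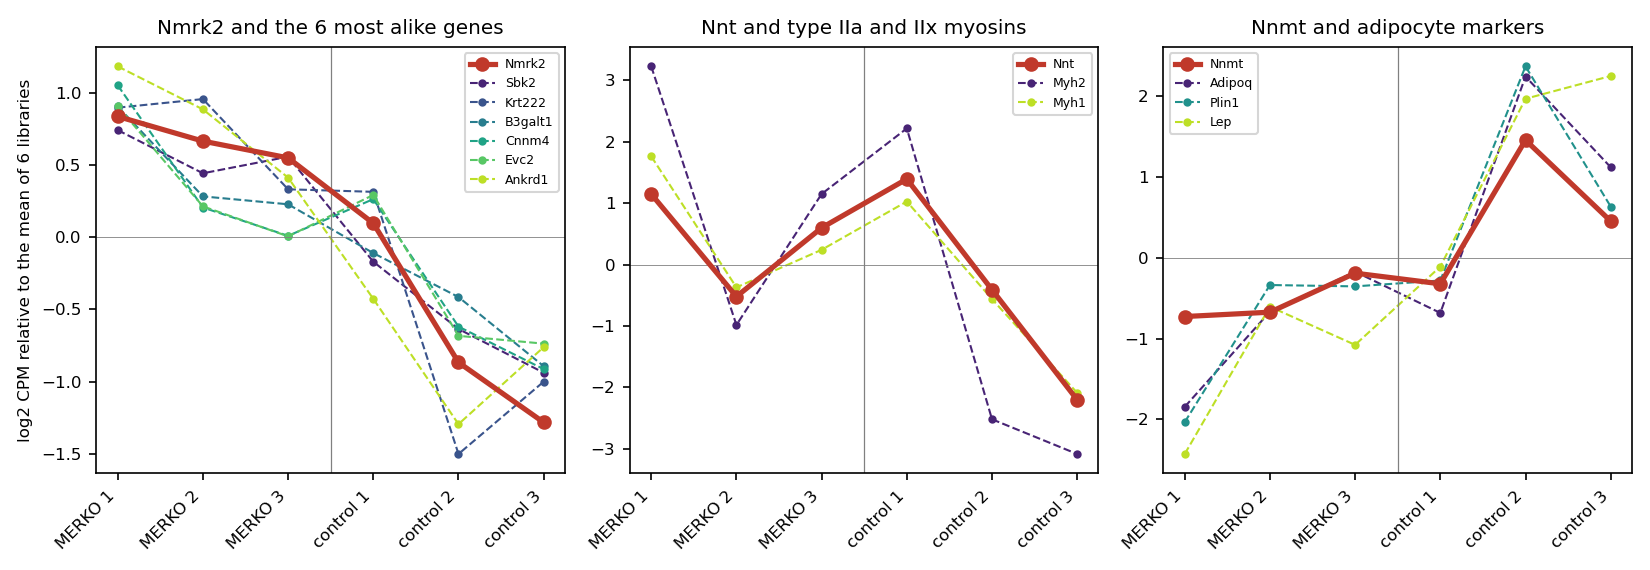
Log2 CPM relative to the mean of the 6 libraries, with MERKO libraries left of the grey line and control libraries right of it, and lines joining the values of a gene. Nmrk2 is drawn with the 6 most alike genes, Nnt with Myh2 and Myh1, and Nnmt with the adipocyte genes Adipoq, Plin1 and Lep. Control 3 is the lowest library for Nmrk2 and Nnt, and control 2 is the highest for Nnmt.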

How the data were processed

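Per the labels' protocols, quadriceps RNA was extracted in Trizol and made into libraries with an Illumina TruSeq RNA kit. The authors deposited raw read counts per gene for 48795 genes in 6 libraries. STAR 2.5.2b, HTSeq 0.9.1, DESeq and the builds mm10 and GRCm38 are named per the submitters' processing notes, without roles. Which annotation and strand setting were used, and how multi-mapping reads were handled, is not given in the sources used here, so overlapping genes may share or lose reads.

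Groups and replicate numbers came from sample titles. Symbols matched 48349 identifiers and 446 had none. Positions and exon lengths are from GENCODE M21 (GRCm38), and promoters from RefSeq (GRCm38.p6). The quasi-likelihood test of edgeR 4.0.16 (R 4.3.3) compared MERKO with control in a model of genotype alone, after filterByExpr (13628 genes kept) and TMM scaling. Adjustment followed Benjamini-Hochberg across those 13628 genes, and adjusted values under 0.05 count as calls. CPM use the same factors. Standard errors are the fold change divided by the root of the F statistic. The biological coefficient of variation was 18.6%. The code was tested on simulated counts. Reads are not independent molecules.

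The 10 genes and all lists were chosen with earlier results of these data known. The naming rule took all 10 genes, other NAD genes past the threshold with the 2 lowest p in each of 5 lists, and the most alike genes. Genes of a sixth list, NADH shuttles, were named after their values were seen. Alternatives were DESeq2 1.42.0, limma-voom (limma 3.58.1), RLE factors, no composition factor, other filters, a robust prior, removal of mitochondrial DNA genes and the ribosomal RNA model, a replicate term and leaving out libraries. Leaving out MERKO 2 and control 2 together was added after the data were seen.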

Additional observations from a re-analysis of the deposited data

How the results depend on the processing

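Under 17 alternatives the log2 fold change of Nmrk2 stayed between 0.99 and 1.76 and that of Nnmt between -1.48 and -0.59, and Nmrk1 and Sirt1 stayed below 0. The number of genes past the adjusted threshold differed from the edgeR result in some alternatives, and nothing is read from the number among the 10, which were chosen on this comparison. It was 1 of the 10 in 5 alternatives, namely no composition factor (1 of the 10 and 93 of all genes), no filter (1 and 140), the replicate block (1 and 51), without control 1 (1 and 2), and without MERKO 1 and control 1 together (1 and 7). DESeq2 called 0 of the 10 and 23 of all genes. Leaving out single libraries gave 0 to 11 calls over all genes and 0 to 1 among the 10. Among the other NAD genes, 1, Aldh1l2, was called without a filter and 0 in the other alternatives. Signs turned for Nmnat3 (-0.089 without a composition factor, -0.029 without MERKO 2 and control 2 together) and Nampt (0.057 without MERKO 1 and control 1 together, 0.0036 without MERKO 2 and control 2 together). Nadk2 was at 0.0052 without MERKO 2 and control 2 together. Leaving out single libraries gave ranges of -0.051 to 0.13 for Nmnat3, -0.20 to 1.66 for Nnt, -0.12 to 0.51 for Sirt3, -0.066 to 0.069 for Nampt, -0.18 to 0.059 for Nmnat1 and -0.092 to 0.0041 for Nadk2. The cause was not tested.

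Across genes, the correlations of deviations from the group means were 0.448, 0.163 and 0.061 for libraries of equal replicate number 1, 2 and 3. For unequal numbers they ran from -0.31 (MERKO 2 with control 1) to 0.18 (MERKO 2 with control 3). Only number 1 stood above every unequal pair, and the labels state no pairing. The replicate block therefore adds no evidence from the design. Depth limits Nnmt most, since its level rests on 9 to 90 reads per library, and Nnt has the widest interval of the 10 genes.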

Other observations

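A further 11 genes encode enzymes and carriers that shuttle electrons of NADH or convert between NAD and NADH, outside the salvage pathway. Of these, 7 were higher in MERKO and 4 were lower. The log2 fold changes had a median of 0.10. Their summed level was 3603 to 3973 CPM in MERKO and 3996 to 4601 CPM in control, so the sum and the median differ in direction. Ldha, with values given below, was the largest part of the sum in every library, and the lower sum in MERKO rests on it. In the edgeR test 0 passed, with 0 at an unadjusted p under 0.05 and 0 called by DESeq2 or limma-voom, and the groups did not overlap in 1, Ldha, where 13.3% of all genes had such groups. The following genes were named after their values were seen. Ldha, the muscle form of lactate dehydrogenase, measured 1295, 1754 and 1813 CPM across the MERKO libraries, against 1917, 1987 and 2265 CPM across the control libraries (log2 fold change -0.34, adjusted p = 0.713, edgeR). Gpd1, the cytosolic enzyme of the glycerol phosphate shuttle, averaged 372 ± 91.9 CPM in MERKO muscle, against 462 ± 33.8 CPM in control muscle, with overlapping groups (log2 fold change -0.31, adjusted p = 0.725, edgeR). Ldhb, the heart form of lactate dehydrogenase, measured 175, 19.1 and 41.6 CPM across the MERKO libraries, against 96.4, 11.8 and 7.90 CPM across the control libraries, with overlapping groups (log2 fold change 1.03, SE 1.03, adjusted p = 0.839, edgeR). MERKO 1 and control 1 were the highest libraries of their groups for Ldhb, as for Nnt.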
